A study of Mus musculus with 18 samples.

Results

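The Ifit genes encode interferon-induced proteins with tetratricopeptide repeats. The 5 members described here, Ifit1, Ifit1bl1, Ifit2, Ifit3 and Ifit3b, were taken by symbol from the authors' deposited DESeq2 tables, and all 5 were listed in both. They are 5 of the 13851 genes that both tables listed, out of 22402 genes listed in either. A sixth gene of the same cluster, Ifit1bl2, was also listed and is given beside the members. RNA was extracted from suspended cells of mouse spleen and bone marrow and read with QuantSeq, which counts tags near the 3' end of polyadenylated transcripts. The mice were C57BL/6. The spleen libraries came from lethally irradiated dKO recipients, 5 given Cgas-/- marrow and 5 given dKO marrow, taken 12 weeks after transplantation. The bone marrow libraries came from 4 samples of Cgas-/- mice and 4 of dKO mice. Cgas-/- cells lack the DNA sensor cGAS, which makes cGAMP, and retain TREX1 and the cGAMP receptor STING. The dKO mice are Trex1-/-;Sting1gt/gt, so their cells lack the DNA exonuclease TREX1, and their goldenticket Sting1 mutation abolishes STING function. In both spleen groups the host was dKO and only the transplanted marrow differed, and host stroma and other cells that survive irradiation can remain in such spleens. Separate mice are not named in the labels, so the spread behind the p-values is that between libraries and may be technical.

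IFIT proteins are among the most strongly induced products of type I interferon signalling. Interferon bound to its receptor activates receptor-bound kinases, and transcription factors activated in turn bind the interferon-stimulated response element in the promoters of these genes. IRF3, activated downstream of STING or MAVS, can bind the same element, so Ifit transcripts can appear without interferon. IFIT1 binds viral RNA whose cap lacks ribose methylation and blocks its translation, and IFIT1 and IFIT2 can bind subunits of the initiation factor eIF3. The human IFIT3 protein stabilises IFIT1 and sharpens its RNA binding.

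On GRCm38 with GENCODE M21 (the assembly of mm10, the build in the submitters' processing notes) the members lie together on chromosome 19 within 99.3 kb, from 34550694 to 34650009. Ifit2 (34550694 to 34576419), Ifit3 (34583531 to 34588731), Ifit3b (34607970 to 34613401) and Ifit1 (34640871 to 34650009) are on the plus strand. Ifit1bl1 (34592891 to 34601956) and Ifit1bl2 (34617049 to 34640743) are on the minus strand. The longest transcript of each gene has 2 coding exons, with coding lengths between 1209 bases in Ifit3 and Ifit3b and 1410 bases in Ifit1bl1 and Ifit2.

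Promoter sequences are shown because interferon acts on this family through an element near the start of transcription. The windows run from 250 bases before to 50 bases after a RefSeq transcript start (GRCm38.p6). Where a gene had several, the window nearest the GENCODE start was used. The core of the interferon-stimulated response element was searched on both strands as 2 copies of GAAA with any 2 bases between them, which reads as TTTC and TTTC on the other strand. Matches are in capitals, and no 2 of them overlap. Ifit3 is at chr19:34583279-34583578 and Ifit3b at chr19:34607707-34608006, both on the plus strand. Ifit1 is at chr19:34640639-34640938 on the plus strand, Ifit1bl1 at chr19:34601919-34602218 on the minus strand, and Ifit2 at chr19:34550444-34550743 on the plus strand.
Ifit3: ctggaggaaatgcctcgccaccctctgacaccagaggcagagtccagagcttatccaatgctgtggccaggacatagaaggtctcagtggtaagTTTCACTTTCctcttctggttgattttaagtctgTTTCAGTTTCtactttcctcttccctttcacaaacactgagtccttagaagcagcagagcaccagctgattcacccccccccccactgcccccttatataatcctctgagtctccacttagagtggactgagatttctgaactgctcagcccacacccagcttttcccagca
Ifit3b: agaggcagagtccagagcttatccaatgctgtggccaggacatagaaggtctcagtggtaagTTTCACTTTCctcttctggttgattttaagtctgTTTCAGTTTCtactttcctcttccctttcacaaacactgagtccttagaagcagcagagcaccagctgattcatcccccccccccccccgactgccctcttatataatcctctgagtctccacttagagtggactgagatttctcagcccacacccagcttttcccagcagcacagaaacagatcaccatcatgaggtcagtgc
Ifit1: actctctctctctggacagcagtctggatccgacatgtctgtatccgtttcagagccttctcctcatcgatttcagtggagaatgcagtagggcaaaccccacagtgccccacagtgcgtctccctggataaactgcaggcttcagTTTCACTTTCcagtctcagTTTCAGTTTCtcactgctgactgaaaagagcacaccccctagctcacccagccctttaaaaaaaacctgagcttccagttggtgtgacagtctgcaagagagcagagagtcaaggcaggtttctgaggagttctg
Ifit1bl1: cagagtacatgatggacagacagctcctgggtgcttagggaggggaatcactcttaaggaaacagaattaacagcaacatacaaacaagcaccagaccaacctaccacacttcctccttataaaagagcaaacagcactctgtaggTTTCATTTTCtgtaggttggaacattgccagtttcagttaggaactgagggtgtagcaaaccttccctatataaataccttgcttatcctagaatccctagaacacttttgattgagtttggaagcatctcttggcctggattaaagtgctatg
Ifit2: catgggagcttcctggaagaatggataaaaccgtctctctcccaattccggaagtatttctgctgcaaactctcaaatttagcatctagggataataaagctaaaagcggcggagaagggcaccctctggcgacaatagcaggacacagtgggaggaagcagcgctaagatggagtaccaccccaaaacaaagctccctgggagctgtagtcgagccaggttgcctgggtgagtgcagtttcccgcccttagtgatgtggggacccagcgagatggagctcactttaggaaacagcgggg

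Ifit1, Ifit3 and Ifit3b each held 2 matches and Ifit1bl1 held 1, whereas neither the printed window of Ifit2 nor its other window held any. Both Ifit2 windows lie at the 5' end of the gene, at starts 34550694 and 34551088, and the gene runs to 34576419. The rest of Ifit2 was not searched, so these windows do not show that the gene lacks the element. For comparison, 3.44% of all 32851 windows of this length held at least 1 match and 0.225% held 2 or more. By gene, 394 of 9847 genes with a window and a symbol in both tables had a match (4.0%), and 17 of 40 interferon-stimulated genes outside the family did (42.5%). Of the 300 bases of Ifit3, 260 were paired with a base in the window of Ifit3b, and 258 of those were identical (99.2%). Bases opposite a gap are left out of this share, unlike in the coding identities below. The Ifit1 window overlapped that of Ifit1bl2, which is transcribed the other way, by 245 bases. Their starts lie 146 bases apart, and both matches lie in the shared stretch. A match is a description of letters and was not tested as a binding site.

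The members are close paralogs to different degrees, and tags from the 3' end have to tell them apart. The coding sequences of Ifit3 and Ifit3b were 99.1% identical, with 11 differing positions over 1209. Ifit1bl1 and Ifit1bl2 shared 87.4%, and Ifit1 shared 73.6% with Ifit1bl1. Ifit2 shared 55.5% with Ifit1 and 56.0% with Ifit3. In the last 300 bases of the annotated transcript, from which such tags come, Ifit3 matched Ifit3b at 94.3% and Ifit1bl1 matched Ifit1bl2 at 88.7% over the full length. No other annotated gene aligned over 200 or more bases with the ends of Ifit1 or Ifit2. The annotated end of Ifit3b also had no such match. The values of Ifit3, Ifit3b and Ifit1bl1 are uncertain as single genes, since the counting could have split reads between near-copies.

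The genotypes were checked through the targeted genes. Trex1 was higher with the Cgas-/- genotype in the authors' deposited tables, by 2.71 ± 0.199 on the log2 scale (± standard error) in spleen and 1.45 ± 0.178 in bone marrow. Cgas, listed as Mb21d1 in the spleen table, was lower, at -0.92 ± 0.217 in spleen and -1.13 ± 0.155 in bone marrow in the authors' deposited tables. All 4 values passed a DESeq2 adjusted p of 0.05, and with a t in place of the normal distribution, of the 4 only Trex1 in spleen did. Tags outside the deleted parts can still be counted, and the level of Sting1, a point mutant, checks nothing. The depth of each library is unknown from these tables, and their mean normalized counts summed to 4.56e+06 in spleen and 9.71e+06 in bone marrow.

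No member passed the test in either comparison, and the estimates lay above 0 in spleen and mostly below 0 in bone marrow. With Cgas-/- marrow in the spleen, all 5 members had log2 fold changes above 0, with a median of 0.21 and a range of 0.13 to 0.69. In Cgas-/- bone marrow, 4 of 5 were below 0, with a median of -0.70 and a range of -1.16 to 0.21. Fold changes are those of the authors' deposited tables, of Cgas-/- over dKO. Over all genes the median was -0.03 in spleen and -0.00230 in bone marrow, and 55.0% and 50.5% of genes were below 0. The sixth gene, Ifit1bl2, was below 0 in both, at -0.28 in spleen and -0.23 in bone marrow. Ifit3 and Ifit3b may share reads, so the signs of the 5 members are not 5 independent observations. The authors' deposited spleen table called 0 of 5 members by DESeq2 at an adjusted p under 0.05, and 0.133% of all 21830 genes (0.055% higher and 0.0779% lower). The bone marrow table called 0 of 5, and 0.534% of all 14423 genes (0.173% higher and 0.361% lower). Before adjustment, 1 of 5 members in spleen had a p under 0.05 and was higher, as had 3.02% of all genes (1.17% higher and 1.85% lower). In bone marrow 2 of 5 did, both lower, against 8.85% of all genes (4.19% higher and 4.65% lower).

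**Figure D1:**
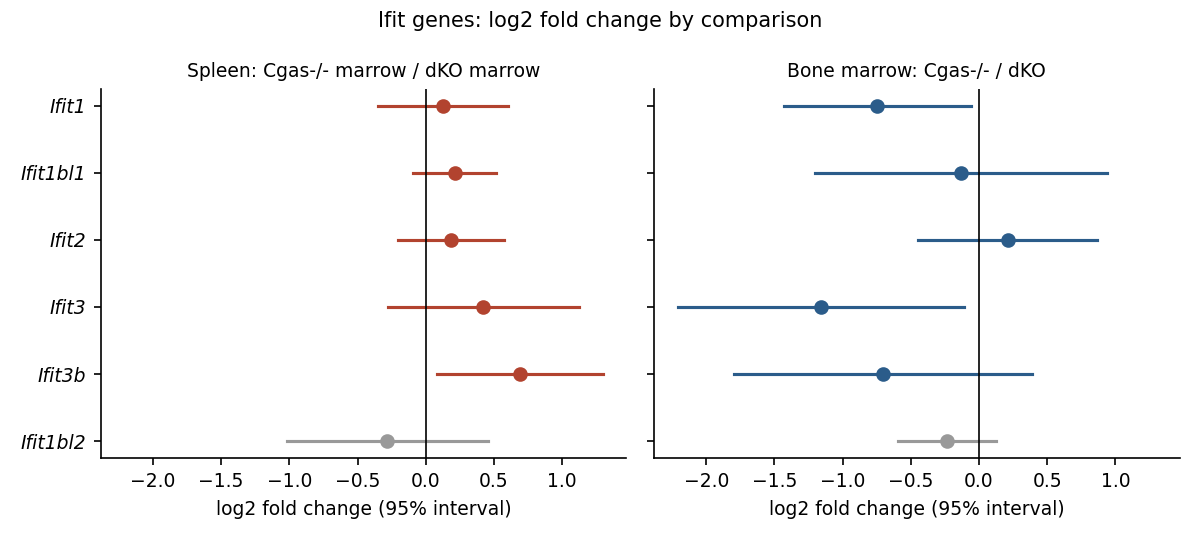
Log2 fold change of the 5 members and of Ifit1bl2 (grey), with 95% intervals from the deposited standard errors, in spleen (left, Cgas-/- marrow over dKO marrow) and bone marrow (right, Cgas-/- over dKO). The spleen estimates of the members lie between 0.13 and 0.69, and in bone marrow all but Ifit2 lie below 0.

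Levels were read as mean normalized counts, which the authors averaged over all libraries of a comparison. No values of single libraries were used, and the spread between libraries is seen only through the standard error. Group means were approximated from the mean and the fold change, which assumes that the fold is the ratio of the group means. The tables were normalized separately, so levels are compared only within a tissue, and 3' tags do not scale with transcript length. In such bulk libraries, fewer cells of a type and less RNA per cell cannot be told apart. In spleen the order by mean was Ifit1bl1 (229), Ifit3 (214), Ifit1 (110), Ifit3b (58.0) and Ifit2 (48.3). In bone marrow it was Ifit3 (93.6), Ifit1 (64.6), Ifit2 (34.1), Ifit3b (17.9) and Ifit1bl1 (15.3). No error comes with these means, so neighbours in the order were not compared. Summed over the 5 members, the approximate means were 729 with Cgas-/- marrow and 590 with dKO marrow in spleen, and 171 in Cgas-/- and 280 in dKO bone marrow. These sums leave out Ifit1bl2, at 18.7 and 22.7 in spleen and 147 and 172 in bone marrow, in the same order. Reads of Ifit1bl2 and its near-copy Ifit1bl1 may have been split differently in the 2 tissues, which was not tested.

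**Figure D2:**
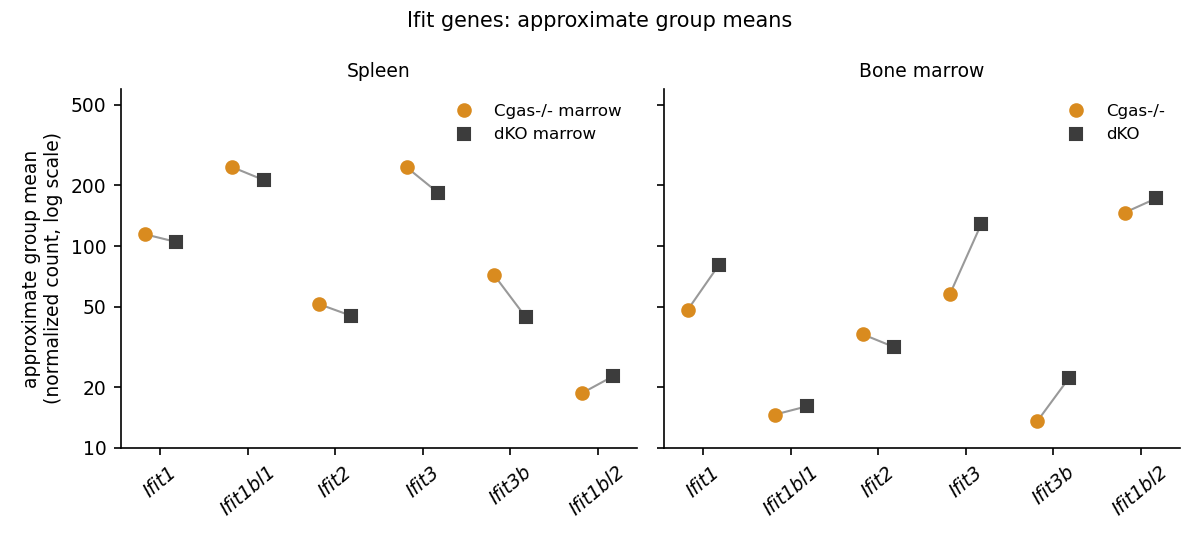
Approximate group means in normalized counts (log axis) of the 5 members and Ifit1bl2 in spleen and bone marrow, with Cgas-/- as circles on the left and dKO as squares on the right of each pair. Ifit3 is at 57.9 in Cgas-/- and 129 in dKO bone marrow, and the members are higher with Cgas-/- marrow in spleen, without passing the test.

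Ifit1, the sensor of incompletely capped RNA, passed in neither tissue. In spleen its approximate mean was 115 normalized counts with Cgas-/- marrow and 105 with dKO marrow. The log2 fold change in the authors' deposited table was 0.13 ± 0.243 (standard error, as throughout) with a 95% interval of -0.35 to 0.60 (DESeq2 adjusted p = 1.0). In bone marrow the approximate mean was 48.3 in Cgas-/- and 80.9 in dKO cells. The authors' deposited table gave -0.75 ± 0.35, a 1.68-fold lower level in Cgas-/- cells with a 95% interval of -1.43 to -0.06 on the log2 scale. Per the authors' deposited table, the DESeq2 p was 0.0333 before and 0.499 after adjustment. With this standard error, a fold of at least 2.42 would have been needed to pass in bone marrow.

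Ifit1bl1, annotated as an Ifit1B-like paralog, had the highest mean count of the members in spleen and the lowest in bone marrow. Its order against the near-copy Ifit1bl2 was also opposite in the 2 tables, with a ratio of means of 11.1 in spleen and 0.0962 in bone marrow, and whether the counts stand for the same transcripts in both tables was not tested. In spleen its approximate mean was 246 with Cgas-/- marrow and 213 with dKO marrow. The log2 fold change in the authors' deposited table was 0.21 ± 0.154 there (DESeq2 adjusted p = 1.0), with a 95% interval of -0.09 to 0.51. This was the most precise estimate of the family, and a 1.55-fold difference would have passed. In bone marrow the approximate means were 14.6 in Cgas-/- and 16.1 in dKO cells, and the authors' deposited table gave -0.13 ± 0.547 (DESeq2 adjusted p = 0.992). The 95% interval ran from -1.21 to 0.94, and a 3.98-fold difference would have been needed to pass.

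Ifit2, whose protein binds eIF3 and, in human cells, AU-rich RNA, had estimates of similar size in both tissues. Its approximate mean was 51.5 with Cgas-/- marrow and 45.2 with dKO marrow in spleen, and 36.6 in Cgas-/- and 31.6 in dKO bone marrow. The authors' deposited tables gave log2 fold changes of 0.19 ± 0.199 in spleen (DESeq2 adjusted p = 1.0) and 0.21 ± 0.334 in bone marrow (DESeq2 adjusted p = 0.947). It was the 1 member above 0 in bone marrow. Its 95% interval there was -0.44 to 0.87. Of 54 measured interferon-stimulated genes outside the family, 53 had a lower bone marrow log2 fold change than Ifit2.

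Ifit3, the partner of IFIT1 in human cells, had the bone marrow estimate farthest from 0 in the family. The approximate mean was 57.9 in Cgas-/- and 129 in dKO bone marrow, a 2.23-fold lower level in Cgas-/- cells. In the authors' deposited table this was -1.16 ± 0.535 on the log2 scale, with a 95% interval of -2.21 to -0.11. The DESeq2 p of 0.0303 in the authors' deposited table was 0.482 after adjustment, so the difference did not pass. In spleen the approximate mean was 245 with Cgas-/- marrow and 183 with dKO marrow. The authors' deposited table gave 0.42 ± 0.357 there (DESeq2 adjusted p = 1.0), with a 95% interval of -0.28 to 1.12.

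Ifit3b, the near-copy of Ifit3, had the largest spleen estimate. Its approximate mean in spleen was 71.6 with Cgas-/- marrow and 44.4 with dKO marrow, a 1.61-fold difference. In the authors' deposited table this was 0.69 ± 0.310, with a 95% interval of 0.08 to 1.30, and the DESeq2 p was 0.0261 before adjustment and 1.0 after it. In bone marrow the approximate mean was 13.6 in Cgas-/- and 22.1 in dKO cells, and the authors' deposited table gave -0.70 ± 0.558 (DESeq2 adjusted p = 0.833). The signs of Ifit3 and Ifit3b were the same within each tissue, but the 2 genes may share reads, so these are not independent observations.

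Some members had wider standard errors than other genes at their level. For each member they were compared with those of genes whose mean was within 1.5-fold of its own. In bone marrow the standard error of Ifit3, 0.535, was 2.46 times the median of 2447 such genes (0.218), and larger than that of 99.2% of them. In spleen it was 0.357, which was 3.04 times the median of 2589 genes and above 99.4% of them. Ifit1 had 1.61 times the median standard error in spleen and 1.35 times in bone marrow, and Ifit3b had 1.55 times in spleen and 1.15 times in bone marrow. The standard error of Ifit2 was 0.913 times the median in spleen and 0.958 times in bone marrow. The fitted spread of Ifit3 was larger than that of nearly all genes of like level in both tissues, and that of Ifit2 was not. Which libraries gave that spread cannot be read from the tables. At its standard error, Ifit3 would have needed a 2.76-fold difference to pass in spleen and a 3.87-fold difference in bone marrow.

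**Figure D3:**
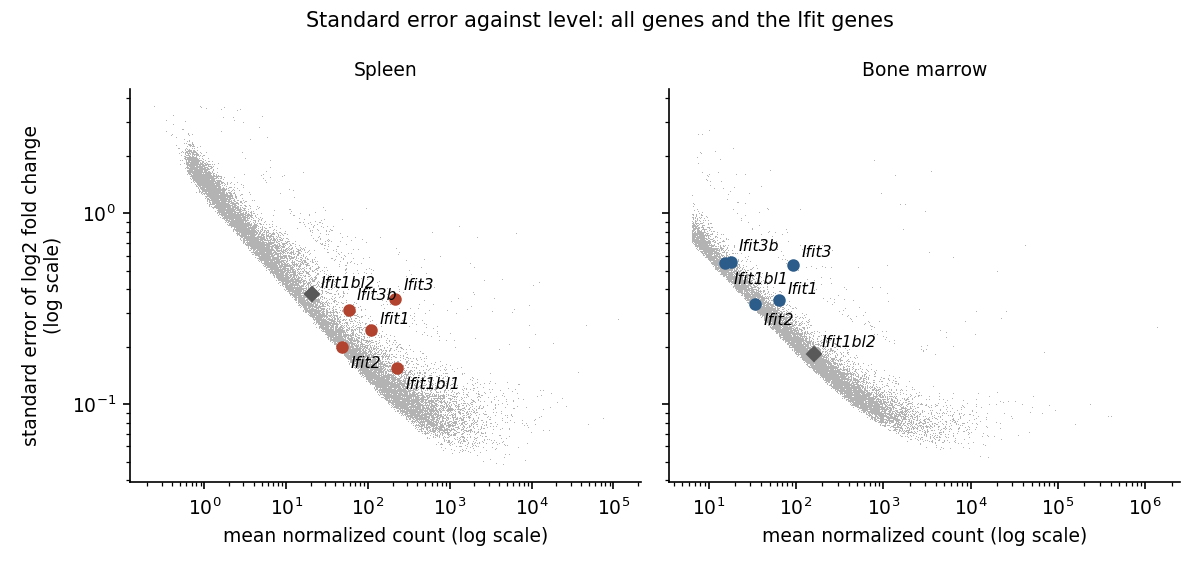
Standard error of the log2 fold change against mean normalized count (both log axes) for every gene of each table (grey points), with the members as filled circles and Ifit1bl2 as a diamond, in spleen (left) and bone marrow (right). Ifit3 lies at the upper edge of the cloud, at 0.357 in spleen and 0.535 in bone marrow, and Ifit2 lies within it.

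The effect in spleen was compared with that in bone marrow by a z test for each of the 13851 genes listed in both tables, with Benjamini-Hochberg adjustment over all of them. The 2 comparisons share no library. Spleens came from irradiated and transplanted dKO hosts and bone marrow came from mice of each genotype, so tissue and transplantation cannot be told apart in this difference. No member passed, against 0.0578% of genes that did (0.0433% higher in spleen and 0.0144% lower). The difference for Ifit3, 0.42 in spleen and -1.16 in bone marrow, was 1.58 ± 0.643 on the log2 scale, with a 95% interval of 0.32 to 2.84 (adjusted p = 0.893). For Ifit3b it was 1.39 ± 0.638 (adjusted p = 0.973), and for Ifit1 it was 0.87 ± 0.426 (adjusted p = 0.987). These 3 members had an unadjusted p under 0.05, which 4.82% of all genes had (2.23% higher in spleen and 2.59% lower). Ifit1bl1 differed by 0.35 ± 0.568 and Ifit2 by -0.02 ± 0.389. The interval for Ifit2, -0.79 to 0.74, does not show that its change was alike in the 2 tissues.

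Other interferon-stimulated genes were read from a list of 55 without Ifit genes, of which 54 were measured in each tissue. In spleen 45 of 54 were above 0 and 9 below 0, with a median of 0.11, whereas 55.0% of all genes were below 0. None of the 54 was called by DESeq2 in the authors' deposited spleen table, against 0.133% of all genes. Before adjustment, 3 higher and 1 lower gene had a p under 0.05, against 1.17% of all genes higher and 1.85% lower. In bone marrow 53 of 54 were below 0, with a median of -0.37, against 50.5% of all genes below 0. In that tissue the authors' deposited table called 9 by DESeq2 at an adjusted p under 0.05, all lower. Of all genes, 0.361% were called lower. Before adjustment 30 had a p under 0.05, again all lower, against 4.65% of all genes. With a t distribution on 6 residual degrees of freedom in place of the normal, 0 of the 54 were called. That setting called 1 of all 14423 genes, and the targeted genes Trex1 and Cgas did not pass under it either. In the authors' deposited table for that tissue Oas2, an oligoadenylate synthetase, fell by 1.20 ± 0.253 on the log2 scale (DESeq2 adjusted p = 0.00142). Its level was 2.30-fold lower, beside 2.23-fold for Ifit3, whose standard error was larger than that of 53 of the 54 genes. Rtp4, a chaperone of receptor transport that interferon induces, had -0.92 ± 0.195 and passed (DESeq2 adjusted p = 0.00177, authors' deposited table).

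The bone marrow estimate of Ifit3 was exceeded downward by 3 of the 54 genes, Mx2, Oasl1 and Oas2, of which Mx2 was chosen after its values were seen. Mx2, an interferon-induced GTPase gene, had -1.49 ± 0.413 in bone marrow in the authors' deposited table (adjusted p = 0.0543 by DESeq2). In spleen no gene of the list had a higher log2 fold change than Ifit3b, and 1 had a higher one than Ifit3. Zbp1, a sensor of Z-form nucleic acid, had 0.39 ± 0.151 in spleen and -0.75 ± 0.232 in bone marrow in the authors' deposited tables, and passed in neither (DESeq2 adjusted p = 1.0 and 0.127). Parp14, an ADP-ribosyltransferase, had -0.24 ± 0.106 in spleen per the authors' deposited table (adjusted p = 1.0 by DESeq2). Between the tissues, 52 of 54 had a larger log2 fold change in spleen, by a median of 0.41, against a median of -0.01 over all genes and 0.87 over the 5 members. Rtp4 was the 1 gene of the list whose difference passed, against 0.0578% of all genes. Its difference was 1.20 ± 0.262 (adjusted p = 0.00799 from the z test), and with a t distribution it did not pass. With adjustment over genes with a mean of at least 20, 2 genes of the list passed, against 10 of all 10062 genes. At a threshold of 0.1, 3 did, against 11 of all 13851 genes.

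**Figure D4:**
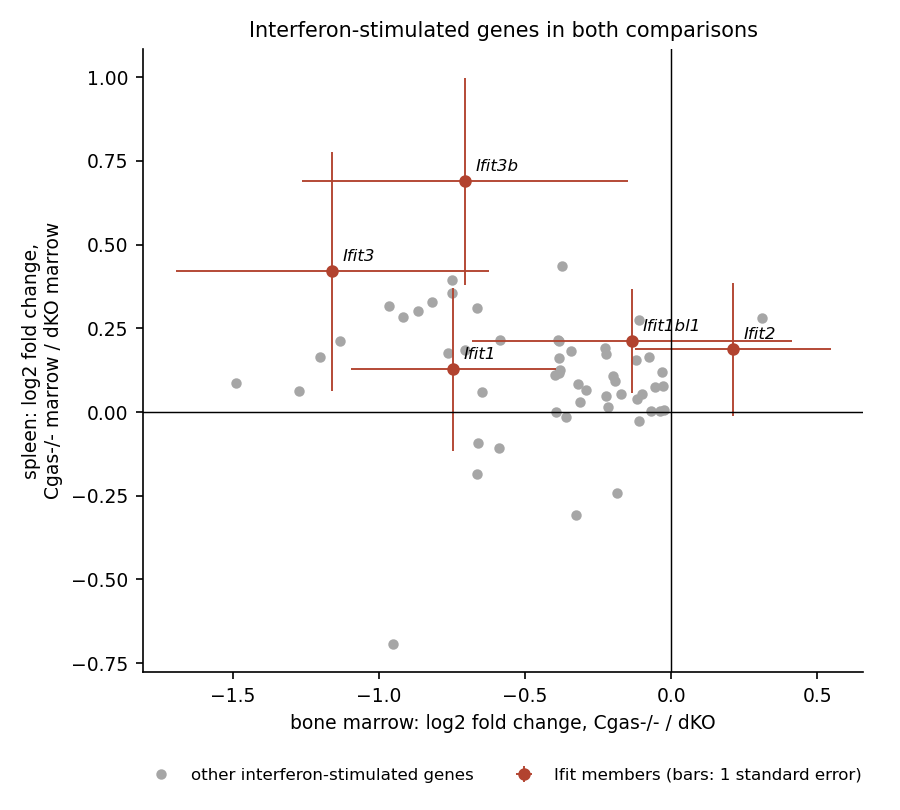
Log2 fold change in spleen (vertical) against bone marrow (horizontal) for 54 interferon-stimulated genes outside the family (grey) and the 5 members (red, with bars of 1 standard error). Most genes lie left of 0 and above 0, and Ifit3 and Ifit3b lie at the upper left with wide bars.

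Genes of interferon signalling that act on the Ifit genes were read as a list of 17, none of which passed. Of these, 16 were measured in each tissue and Ifnb1 was listed in neither table. By DESeq2, 0 were called in either of the authors' deposited tables, against 0.133% of all genes in spleen and 0.534% in bone marrow. An unadjusted p under 0.05 was reached by 0 in spleen and 3 in bone marrow, 1 higher and 2 lower. Of all genes, 3.02% reached it in spleen and 8.85% in bone marrow. The medians were 0.03 in spleen and -0.11 in bone marrow. Irf7, the interferon-induced factor that amplifies type I interferon production, had 0.31 ± 0.271 in spleen (DESeq2 adjusted p = 1.0) and -0.66 ± 0.192 in bone marrow (DESeq2 adjusted p = 0.0790) in the authors' deposited tables. Socs1, a feedback inhibitor of JAK signalling, had 0.59 ± 0.259 in bone marrow per the authors' deposited table (adjusted p = 0.437 by DESeq2).

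Genes of RNA sensing, its signalling and antiviral RNA effectors were read as a list of 17, not chosen by the RNA that IFIT proteins bind. In spleen 13 of these were above 0, and in bone marrow 16 were below 0. Of all genes, 55.0% were below 0 in spleen and 50.5% in bone marrow. The medians of the list were 0.12 in spleen and -0.36 in bone marrow. None passed in spleen, against 0.133% of all genes. In bone marrow 4 were called lower in the authors' deposited table (DESeq2), against 0.361% of all genes. With a t distribution 0 were called. All 4 are oligoadenylate synthetase family genes that are also in the interferon-stimulated list. Among these, Oasl1 fell by 1.27 ± 0.276 (DESeq2 adjusted p = 0.00230, authors' deposited table). Pnpt1, an RNA-degrading exonuclease, had 0.27 ± 0.176 in spleen in the authors' deposited table. The 13 subunits of eIF3, the translation factor that IFIT1 and IFIT2 bind, had medians of 0.00180 in spleen and 0.03 in bone marrow. None passed the DESeq2 test in either of the authors' deposited tables, against 0.133% of all genes in spleen and 0.534% in bone marrow. Eif3e, at 0.15 ± 0.0710 in spleen, was the 1 subunit with an unadjusted p under 0.05 in the authors' deposited tables. Of all genes, 3.02% had such a p in spleen and 8.85% in bone marrow. Eif3d had 0.14 ± 0.0740 in spleen, and Eif3b had 0.20 ± 0.115 and Eif3c 0.12 ± 0.0782 in bone marrow in the authors' deposited tables.

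Other protein-coding genes at the locus were read to see whether values around the cluster moved with it. Within 0.5 Mb of the cluster GENCODE M21 has 11 that are no Ifit gene, of which 7 were listed in each table (Ankrd22, Stambpl1, Acta2, Fas, Lipa, Pank1 and Kif20b). None passed the DESeq2 test in either of the authors' deposited tables, against 0.133% of all genes in spleen and 0.534% in bone marrow. The medians of these 7 genes were 0.11 in spleen and 0.10 in bone marrow. The nearest listed neighbour, Lipa, which encodes lysosomal acid lipase, had -0.12 ± 0.108 in spleen and -0.09 ± 0.154 in bone marrow in the authors' deposited tables. The largest bone marrow estimate was that of Pank1, a pantothenate kinase gene, at 0.47 ± 0.163 (DESeq2 p = 0.00421, and 0.222 after adjustment, in the authors' deposited table).

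**Figure D5:**
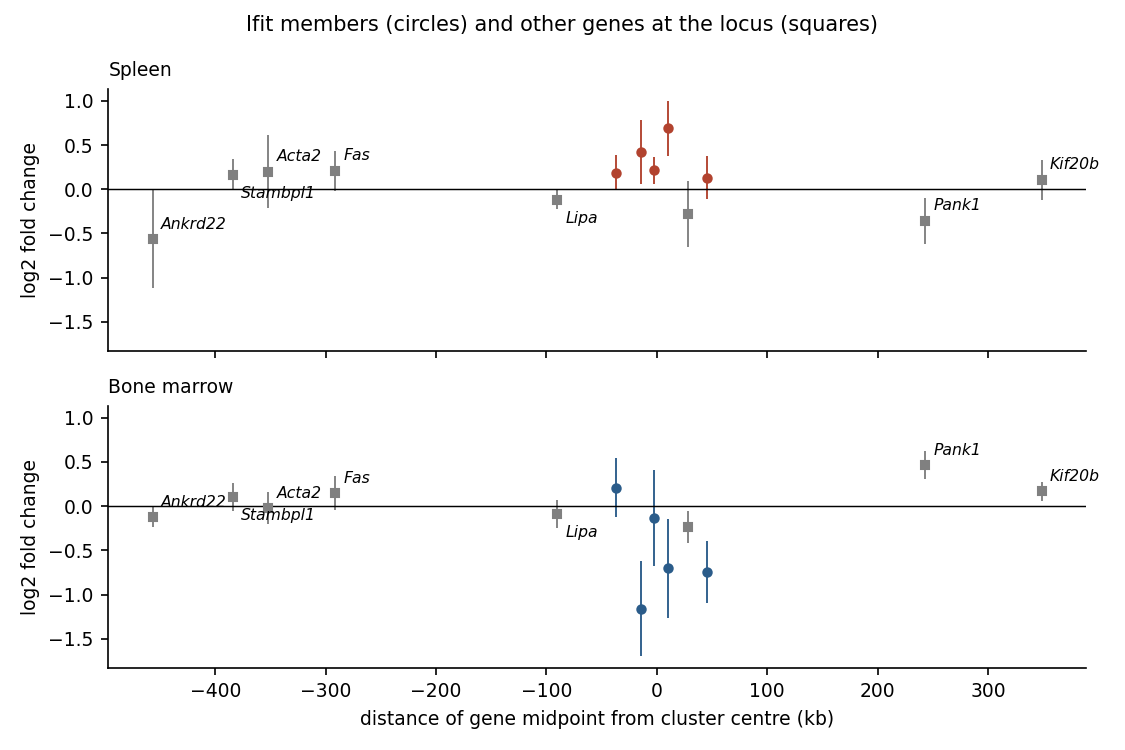
Log2 fold change with 1 standard error against the distance of each gene's midpoint from the centre of the cluster (kb), in spleen (above) and bone marrow (below), for the 5 members (circles) and the other listed genes of the locus (squares, the unnamed square being Ifit1bl2). In bone marrow the flanking genes lie between -0.12 and 0.47, and Ifit3 is at -1.16.

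Cell type markers were read in the same tables. Markers of each labelled tissue were present, with all 16 neutrophil markers at a mean of at least 1693 in bone marrow and all 12 T cell markers at 238 or more in spleen. In bone marrow, where Ifit3 and Ifit1 had their largest estimates, 16 of 18 monocyte markers were below 0 (median -0.32), against 50.5% of all genes. By DESeq2 5 were called lower in the authors' deposited table, against 0.361% of all genes called lower. Among these were Lyz2, the lysozyme gene, at -0.56 ± 0.0892 and Ly6c2, a surface marker of classical monocytes, at -0.33 ± 0.0794. Nr4a1, a nuclear receptor gene of non-classical monocytes, had 0.26 ± 0.128 in spleen and 0.28 ± 0.277 in bone marrow in the authors' deposited tables. Klf4, a transcription factor gene of monocytes, had 0.37 ± 0.197 in spleen and 0.21 ± 0.238 in bone marrow in those tables, and neither gene passed in either tissue. In spleen Lyz2 had -0.08 ± 0.203 and Ly6c2 0.01 ± 0.161 in the authors' deposited table. With a t in place of the normal distribution, 0 of the 18 markers were called in bone marrow. The approximate means of the 18 markers summed to 89897.5 in Cgas-/- and 122975 in dKO cells, and none was at 0. Lyz2 alone had a mean normalized count of 65328, of 106436 summed over the 18, so these sums follow mainly that gene. In the same comparison all 14 measured erythroid markers were above 0 (median 0.40), with summed approximate means of 66117 in Cgas-/- and 36547 in dKO cells. The highest single mean among these 14 was 22306, of 51332 summed over them. In spleen 9 of 18 monocyte markers were below 0 (median -0.01), 14 of 16 neutrophil markers were below 0 (median -0.51), and all 14 erythroid markers were below 0 (median -0.72). Of all genes in spleen, 55.0% were below 0. In bone marrow 15 of 16 neutrophil markers were below 0 (median -0.11), and 0 were called. The medians in spleen and bone marrow were 0.01 and 0.07 for B cell markers and 0.08 and 0.07 for T cell markers. For dendritic cell markers they were -0.08 and 0.19. The part of these shifts in the Ifit values was not tested.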

How the data were processed

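The 18 libraries were grouped by their titles. QuantSeq forward libraries were made from RNA of suspended cells, per the labels' protocols. Listed in the submitters' processing notes, without roles, are Partek, STAR 2.6.1, DESeq2, bcl2fastq 1.8.4 and mm10. No source used here gives the counting tool, strand, annotation or gene filter. Per the file headers, the authors deposited for each comparison the mean normalized count (a signal averaged over its libraries), the log2 fold change, its standard error, the Wald score, the p-value and the adjusted p-value. The score, p-value and adjusted p-value, the last by Benjamini-Hochberg over all genes of a table, were recomputed from the deposited columns and matched. A second deposited score, for ranking, was not used.

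The DESeq2 tests of the authors were the main tests, at an adjusted p of 0.05. No count test was run, since values per library were not used here, and depth is unknown. No values of other samples were present (0 columns). Group means were approximated from the mean and the fold change, with equal groups. The difference between tissues was divided by the root of the summed squared standard errors to give a z. It was run on data simulated from a normal with the deposited standard errors. Such data cannot show whether a normal holds for so few libraries. Symbols in only 1 table were matched through RefSeq synonyms (75 genes). Promoter windows are from RefSeq (GRCm38.p6), and all 6 Ifit genes matched by symbol. Coding sequences were aligned globally with Biopython 1.88 and transcript ends searched with blastn 2.17.0 against GENCODE M21 transcripts. Python 3.11.15, pandas 2.3.3, numpy 2.4.6, scipy 1.17.1 and matplotlib 3.10.9 were used.

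The genes named are the members and Ifit1bl2, the targeted genes, the genes flanking the cluster, the 5 genes nearest in pattern, and the 2 genes of each list with the smallest adjusted p, then p, in each tissue. Of the marker lists, values of the 4 genes selected are given for monocytes, and the other lists are summarised. A gene of the signalling list that this rule selects is not reported here. The members and the 10 gene lists were chosen with earlier results of these data known. The 4 alternatives tried were adjustment over genes with a mean of at least 20, a threshold of 0.1, a t distribution, and centring on the median gene.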

Additional observations from a re-analysis of the deposited data

How the results depend on the processing

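The number of members called was 0 in spleen, 0 in bone marrow and 0 for the difference between tissues, and stayed 0 in all 12 combinations of these with the 4 alternatives. No estimate changed sign in the 56 member values recomputed under them, and the smallest adjusted p was 0.441, for Ifit3 in bone marrow with adjustment over genes with a mean of at least 20. Over the alternatives, the adjusted p of Ifit3 ran from 0.441 to 0.986 in bone marrow and from 0.780 to 0.999 for the difference, and that of Ifit1 in bone marrow from 0.456 to 0.986. Ifit1bl1 and Ifit3b have a bone marrow mean under 20 and give no value with that filter for bone marrow or for the difference. With a t distribution on 8 and 6 residual degrees of freedom in place of the normal, the genes called over each whole table were 11 in place of 29 in spleen and 1 in place of 77 in bone marrow, and 2 in place of 8 for the difference. For the gene lists and the targeted genes the alternatives were added after seeing the data. With a t distribution no gene of any list was called in either tissue or for the difference, and Trex1 (adjusted p = 0.438) and Cgas (adjusted p = 0.570) no longer passed in bone marrow, nor Cgas in spleen. With a threshold of 0.1, Irf7 passed in bone marrow and 124 genes were called in bone marrow in place of 77. Centring moved no log2 fold change by more than the median over genes with a mean of at least 20, which was 0.00565 in spleen and -0.00287 in bone marrow. No paired analysis was possible because values per library were not used here, and leaving out each replicate was not run for the same reason.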

Other observations

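The order of Ifit1bl1 and Ifit1bl2 was opposite in the 2 tables. In the authors' deposited table for spleen, Ifit1bl1 had a mean normalized count of 229 and Ifit1bl2 of 20.7, a ratio of 11.1. In bone marrow, per the authors' deposited table, Ifit1bl1 had 15.3 and Ifit1bl2 159.5, a ratio of 0.0962. No error comes with these means. The RefSeq extent of Ifit1bl1 is 70.1 kb and holds all 23782 bases of Ifit1bl2 on the same strand, whereas the GENCODE M21 extents do not overlap. The tables also name genes differently, with Cgas in the bone marrow table and Mb21d1 in the spleen table, and 75 genes in all matched only by synonym. The part of gene models or of paralog reads in this order was not tested. The ratio of Ifit3 to Ifit3b was 3.69 in spleen and 5.24 in bone marrow. Ifit1bl2 had log2 fold changes of -0.28 ± 0.377 in spleen and -0.23 ± 0.184 in bone marrow in the authors' deposited tables, and passed the DESeq2 test in neither.

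The genes whose pair of log2 fold changes lay nearest the median of the members, over the 2 comparisons and among 10058 genes with a mean of at least 20 in both tables, were Slc12a5, Ifi213, Sh3tc1, Rabl2 and Avpr2. Their distances on the log2 scale were between 0.0261 and 0.0559, and 42 genes lay within 0.2. Ifi213, a PYHIN family gene of the interferon-stimulated list, had 0.19 ± 0.128 in spleen and -0.70 ± 0.282 in bone marrow in the authors' deposited tables, and passed the DESeq2 test in neither. A likeness over 2 comparisons is a description.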
